A study of Mus musculus with 48 samples.

Results

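The 10 genes described here mark the primitive endoderm, the extraembryonic layer of the mouse blastocyst: the transcription factor genes *Gata4*, *Gata6*, *Sox17* and *Sox7*, the receptor gene *Pdgfra*, the endocytic adaptor gene *Dab2*, and the basement membrane genes *Lama1*, *Col4a1*, *Col4a2* and *Sparc*. They were chosen by name, and all 10 were found by their Ensembl identifiers among the 55335 genes of the RNA-seq and Ribo-seq tables. Primitive endoderm forms from the inner cell mass beside the epiblast, the layer that embryonic stem (ES) cells resemble. FGF signalling through MEK and ERK favours GATA6, which is antagonised by NANOG in the epiblast, and GATA6 is followed by SOX17, GATA4 and SOX7. Cells of the parietal branch then secrete a thick basement membrane of laminin, type IV collagen and SPARC. ES cells are known to hold low levels of some of these mRNAs, more so when ERK signalling is on.

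The cells were mouse ES cells of a hybrid 129-C57BL/6 background that carry a 4-hydroxytamoxifen (4OHT) inducible Cre recombinase, grown on gelatin with serum, LIF, a GSK-3 inhibitor and the MEK inhibitor PD0325901, so every group was under a drug that blocks the step from FGF to ERK. Each group had 2 libraries, in 14 groups of RNA-seq and 2 of Ribo-seq. *Nrde2*-KO cells (NRDE2 is a nuclear protein that binds the RNA helicase MTREX) were conditional knockout cells given 100 nM 4OHT for 4 days, and the WT cells were labelled as the same conditional line with wild-type genotype. *Nrde2*Δ200 cells lacked the amino-terminal part of NRDE2, and *Nrde2-D174R* cells carried a point mutation in it. Both were compared with the WT libraries that *Nrde2*-KO was compared with, so these 3 comparisons share their controls. *Mtrex*-KO cells, which lose the helicase of the nuclear exosome, had 100 nM 4OHT for 3 days and WT libraries of their own. *Ccdc174-dTAG* cells carried a CCDC174-FKBP12F36V fusion, which 500 nM dTAG-13 for 24 h degrades, and their WT controls carried the same fusion without dTAG-13. A second *Nrde2*-KO experiment and the *Ccdc174-dTAG* experiment were each done without and with 0.1 mg/ml cycloheximide (CHX), a translation inhibitor, for 4 h. Cell lines were derived as clones, and the knockout cannot be told apart from the 4OHT treatment that came with it. The libraries of a group were labelled as replicates with no word on separate cultures, so the p-values measure the spread between these samples, which may be technical.

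RNA-seq libraries held between 28683644 and 36272309 reads in genes and Ribo-seq libraries between 3475051 and 5035940. *Nrde2* stood at 41.6 and 40.5 CPM in WT and at 19.3 and 20.4 CPM in *Nrde2*-KO, and *Mtrex* fell from 119 and 112 CPM to 46.4 and 41.6 CPM in *Mtrex*-KO. The *Mtrex* WT was itself low in *Mtrex*, which stood at 195 to 255 CPM in the other WT libraries without CHX. The reason was not tested. With CHX, *Nrde2* RNA did not separate the labels, at 244 and 226 CPM in WT and 259 and 250 CPM in the libraries labelled *Nrde2*-KO (log2 fold change 0.12, limma adjusted p = 0.121), so directions drawn from the latter rest on their labels. The effect of *Nrde2*-KO with CHX minus that without was called for 0.172% of all genes, and *Lamb2*, for one, had a log2 fold change of −1.55 with CHX and of −1.71 without it. *Ccdc174* mRNA is no check of a drug that acts on the protein. ES-cell identity was borne out by *Pou5f1*, *Nanog* and *Sox2*, whose levels were at least 176 CPM in every RNA-seq library. Of the defining genes of mature primitive endoderm outside the 10, *Ttr* and *Afp* were at or near 0 in all RNA-seq libraries, with at most 0.0303 and 0.195 CPM, and *Foxa2* did not exceed 2.26 CPM. Others were expressed, such as *Hnf4a* at 8.54 and 10.1 CPM and *Lrp2* at 16.7 and 14.5 CPM in the *Mtrex* WT, and 15 of 34 other genes listed for the primitive endoderm and its derivatives were under 0.5 CPM in the first *Nrde2* WT. Whether primitive endoderm cells were present was not tested.

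Levels below are CPM divided by a scaling factor per library. Fold changes are on the log2(CPM + 0.25) scale, which understates the changes of low genes. A gene is called changed, or is said to have risen or fallen, at a Benjamini-Hochberg adjusted p below 0.01 over all genes tested and a log2 fold change past 1 in either direction. In bulk RNA, fewer cells expressing a gene and less RNA per cell cannot be told apart.

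*Col4a1* (ENSMUSG00000031502, chr8:11198423-11312826, minus strand) and *Col4a2* (ENSMUSG00000031503, chr8:11312805-11449287, plus strand) encode the chains that form the common type IV collagen trimer, and they lie head to head in GRCm38. Their annotated genes overlap by 22 bases on opposite strands, and the reads were counted by strand. The promoter windows, 250 bases before and 50 from the start site on, are shown because both genes rose in *Mtrex*-KO (below), though their values parted in other comparisons. Sequences are those of RefSeq for GRCm38.p6, which held windows for 5 of the 10 genes. In the lines below the capitals mark the 78 bases at chr8:11312777-11312854 that both windows hold, read from opposite strands.
Col4a1, chr8:11312777-11313076, minus strand: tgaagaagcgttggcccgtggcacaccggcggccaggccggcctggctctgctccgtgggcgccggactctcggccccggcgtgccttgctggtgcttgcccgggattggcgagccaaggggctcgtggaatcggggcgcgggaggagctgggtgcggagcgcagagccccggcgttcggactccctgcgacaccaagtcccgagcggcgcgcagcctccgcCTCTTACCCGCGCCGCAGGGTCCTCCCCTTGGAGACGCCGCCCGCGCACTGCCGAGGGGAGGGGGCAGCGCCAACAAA
Col4a2, chr8:11312555-11312854, plus strand: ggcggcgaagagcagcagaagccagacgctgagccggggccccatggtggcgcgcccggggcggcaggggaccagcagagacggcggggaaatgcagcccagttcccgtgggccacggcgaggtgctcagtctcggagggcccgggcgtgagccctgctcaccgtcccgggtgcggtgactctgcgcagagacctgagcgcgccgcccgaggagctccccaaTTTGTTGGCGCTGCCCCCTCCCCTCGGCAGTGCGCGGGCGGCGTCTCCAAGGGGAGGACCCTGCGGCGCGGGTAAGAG
The start sites are 21 bases apart. GC content was 74.0% for *Col4a1* and 73.7% for *Col4a2*, against a median of 52.7% over all promoter windows. The letters GGGCGG, the core of a GC box, were searched on both strands and occurred 1 time in the *Col4a1* window and 3 times in the *Col4a2* window, and 35.7% of 32851 windows hold them. The letters AGATAA, a form of the motif of GATA factors, were searched in the same way and occurred in 1 of the 6 windows of these 5 genes, against 11.2% of all windows. That window is the upstream start of *Dab2* (ENSMUSG00000022150, chr15:6299788-6440712, plus strand), with the match in capitals on the opposite strand, 14 bases past the start site. It is shown because *Dab2* was called with *Gata6* in 3 comparisons below. *Dab2* was called without *Gata6* in *Nrde2*Δ200, and *Gata6* without *Dab2* in Ribo-seq and in the labelled *Nrde2*-KO with CHX.
Dab2, chr15:6299539-6299838, plus strand: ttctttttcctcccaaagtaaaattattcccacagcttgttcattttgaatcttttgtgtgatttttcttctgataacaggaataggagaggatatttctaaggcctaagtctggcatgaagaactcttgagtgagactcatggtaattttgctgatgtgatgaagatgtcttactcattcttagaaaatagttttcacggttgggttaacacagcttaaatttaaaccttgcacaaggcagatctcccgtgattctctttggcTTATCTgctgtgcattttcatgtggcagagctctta
A match in such a window is a description of the letters and not a binding site.

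The other members lie at chr14:63198922-63271692 (*Gata4*, ENSMUSG00000021944, minus strand), chr18:11052064-11085635 (*Gata6*, ENSMUSG00000005836, plus strand), chr1:4490931-4497354 (*Sox17*, ENSMUSG00000025902, minus strand), chr14:63943673-63950732 (*Sox7*, ENSMUSG00000063060, plus strand), chr5:75152292-75198215 (*Pdgfra*, ENSMUSG00000029231, plus strand), chr17:67697259-67822647 (*Lama1*, ENSMUSG00000032796, plus strand) and chr11:55394500-55423183 (*Sparc*, ENSMUSG00000018593, minus strand). Reads were counted over their exons. No gene that overlaps them, other than the *Col4a1* and *Col4a2* pair, exceeded 0.244 CPM in any RNA-seq library.

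*Sparc* and *Lama1* were already abundant in WT ES cells, with *Col4a1*, *Gata4* and *Col4a2* at lower levels. *Gata6*, *Sox17*, *Pdgfra* and *Dab2* were low, and *Sox7* was near the lower limit of measurement. Per kilobase of exon, the mean level in the WT libraries of the first *Nrde2*-KO experiment was 108 CPM per kb for *Sparc*, 20.9 for *Lama1*, 3.55 for *Col4a1*, 2.26 for *Gata4* and 1.44 for *Col4a2*. It was 0.260 CPM per kb for *Dab2*, 0.148 for *Sox17*, 0.135 for *Gata6*, 0.125 for *Pdgfra* and 0.0164 for *Sox7*. Of the 9 genes measured above 0 in all 28 RNA-seq libraries, *Gata6* ranged most, from 0.205 to 4.86 CPM (median 1.03 CPM), a 23.7-fold span. *Pdgfra* ranged from 0.558 to 7.49 CPM, *Col4a2* from 7.28 to 60.4 CPM, *Dab2* from 0.798 to 5.41 CPM and *Col4a1* from 23 to 126 CPM. *Sparc* spanned the least of the 9, from 232 to 815 CPM. *Sox7*, a factor of the later primitive endoderm, was at 0 in 5 libraries, which 3 reads would allow to be up to between 0.0672 and 0.0829 CPM, and reached 0.768 and 0.521 CPM in *Mtrex*-KO (22 and 15 reads). It was too low for any test.

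**Figure D1:**
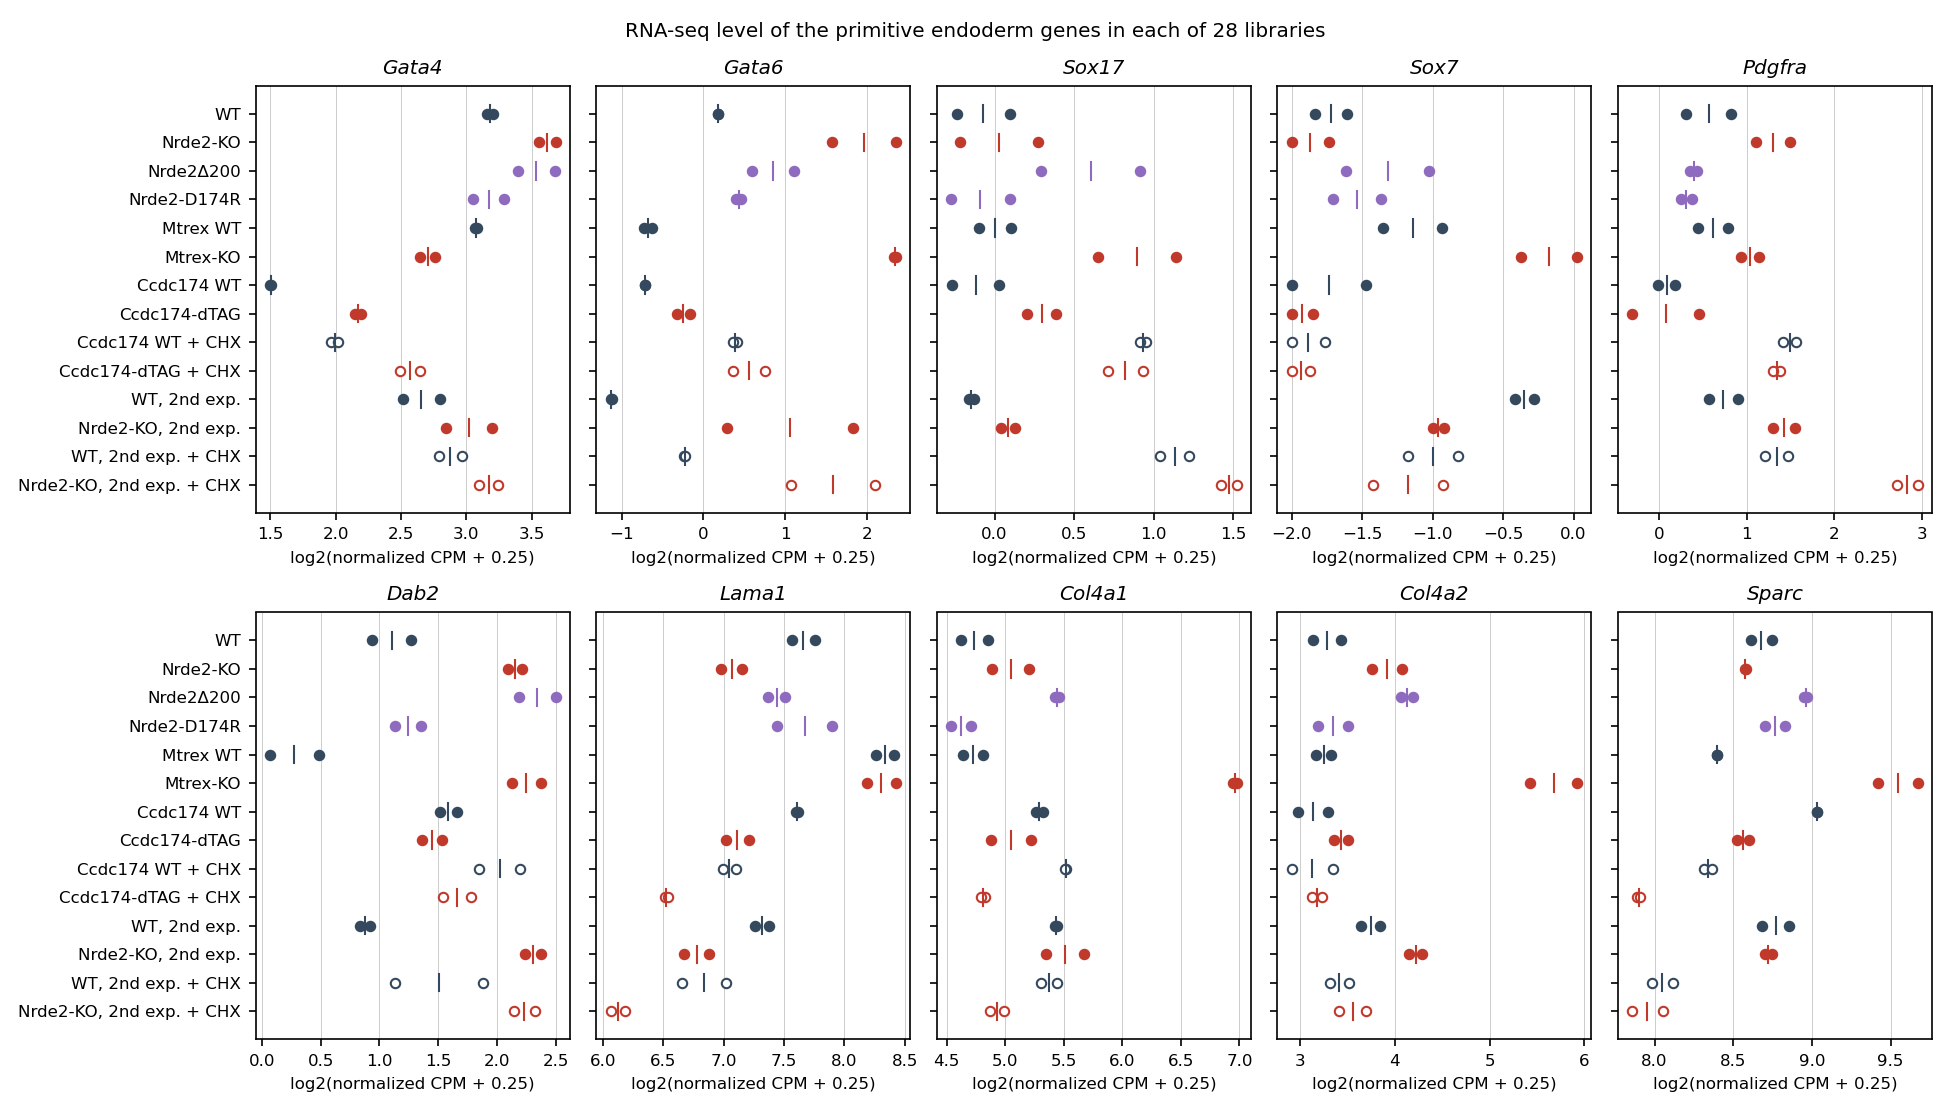
Level of each of the 10 genes in the 28 RNA-seq libraries (log2 of scaled CPM + 0.25, x axis, with a scale of its own in each panel) by group (y axis). Filled points are libraries without CHX, open points libraries with CHX, and ticks are the means of the 2 libraries of a group; *Gata6* is highest in *Nrde2*-KO and *Mtrex*-KO, and *Col4a1*, *Col4a2* and *Sparc* in *Mtrex*-KO.

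In *Nrde2*-KO, *Gata6* and *Dab2* rose, and no other member was called. *Gata6*, the first factor of the primitive endoderm program, was at 0.879 and 0.884 CPM in WT and at 4.86 and 2.71 CPM in *Nrde2*-KO, from 29 and 34 reads to 191 and 113 reads. Both knockout libraries lay above both WT libraries, and the knockout libraries differed from each other by more than the WT libraries did. Its log2 fold change was 1.78 ± 0.35 (SE), or 3.44-fold (limma adjusted p = 0.00105). *Dab2*, whose product sorts endocytic cargo and is needed for the primitive endoderm to form a polarised layer, was at 1.67 and 2.16 CPM in WT and 4.38 and 4.03 CPM in *Nrde2*-KO. The groups did not overlap, and its log2 fold change was 1.05 ± 0.19 (adjusted p = 0.000579). These 2 were 2 of the 9 members tested, where 5.01% of all 14889 genes tested were called and 3.02% were called higher. The median log2 fold change of the members was 0.44, against 0.00 over all genes. Both calls rested on few reads and few libraries: without WT replicate 1 the log2 fold changes were 1.78 and 0.89 with no call, without knockout replicate 1 they were 1.39 and 1.00 with no call, and *Dab2* was at 0.84 with a pseudocount of 1, also with no call.

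The other 7 members did not pass. *Lama1*, which encodes the laminin chain of the embryonic basement membrane, was lower, at 216 and 189 CPM in WT and 142 and 126 CPM in *Nrde2*-KO. Its adjusted p was 0.00246, but its log2 fold change of −0.60 ± 0.13 did not reach the fold threshold (18.2% of all genes passed at any fold change). *Col4a2* had a log2 fold change of 0.63 (adjusted p = 0.0112), *Pdgfra* of 0.74 (adjusted p = 0.0388) and *Gata4* of 0.44 (adjusted p = 0.0392). *Col4a1* stood at 0.31, *Sox17* at 0.10 and *Sparc* at −0.10 (adjusted p at least 0.0884). The interval around the value of *Sox17*, which follows GATA6 in the embryo, ran from −0.45 to 0.65. The summed level of 13 trophectoderm markers was 173.7 and 170 CPM in WT and 140 and 128 CPM in *Nrde2*-KO, with *Gata3* and *Cdx2* among them higher (values below), and their part in the result was not tested.

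In the second experiment, set against other WT libraries, *Gata6* and *Dab2* were again the members called, 2 of 9, with 4.84% of all genes called and 2.41% called higher. *Gata6* was at 0.205 and 0.211 CPM in WT, on 7 reads each, and at 3.31 and 0.974 CPM in *Nrde2*-KO (106 and 35 reads). The replicates of the knockout again lay far apart, yet both were above both WT libraries. Its log2 fold change was 2.19 ± 0.35 (adjusted p = 0.000168). *Dab2* was at 1.64 and 1.54 CPM in WT and 4.47 and 4.95 CPM in *Nrde2*-KO (log2 fold change 1.43 ± 0.19, adjusted p = 2.97e-05). *Lama1* was again lower without reaching the fold threshold, at 166 and 153 CPM against 118 and 102 CPM (log2 fold change −0.54, adjusted p = 0.00495, with 18.7% of genes past that p at any fold change). The difference between the effects of both experiments passed for none of the 9 members, with values between −0.23 and 0.41. It also passed for 0.0% of all genes, with 924 of them at an unadjusted p under 0.05 by limma, while edgeR called 0 and DESeq2 3. For *Gata6* the interval of that difference ran from −0.64 to 1.45, which leaves room for unequal effects.

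Among the *Nrde2* mutants, *Dab2* rose in *Nrde2*Δ200, and none of the 9 members was called in *Nrde2-D174R*. In *Nrde2*Δ200, *Dab2* was at 5.41 and 4.30 CPM against 1.67 and 2.16 CPM in the shared WT (log2 fold change 1.24 ± 0.19, adjusted p = 0.000374), the only called member where 2.65% of all genes were called and 1.59% called higher. *Col4a1* at 42.8 and 43.7 CPM (0.71, adjusted p = 0.00172) and *Col4a2* at 16.5 and 18.0 CPM (0.84, adjusted p = 0.00341) passed the p threshold, as 7.49% of genes did, and missed the fold threshold. *Gata6* was at 1.90 and 1.26 CPM, above both WT libraries but with a log2 fold change of 0.67 ± 0.35 (adjusted p = 0.212). *Lama1*, lower in *Nrde2*-KO, had a value of −0.22 (adjusted p = 0.274) here. In *Nrde2-D174R* the log2 fold changes of the 9 members lay between −0.26 and 0.26, and 0.215% of all genes were called. The smallest adjusted p of a member there was 0.642, and the widest interval was that of *Gata6*, from −0.49 to 1.00.

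In *Mtrex*-KO, 5 of the 9 members tested rose, among them 3 of the 4 basement membrane genes. *Gata6* was at 0.356 and 0.399 CPM in the matched WT (13 and 14 reads) and at 4.78 and 4.86 CPM in *Mtrex*-KO (137 and 140 reads). These are 8.09-fold apart on the pseudocount scale, with a log2 fold change of 3.02 ± 0.35 (adjusted p = 8.09e-07). *Dab2* was at 1.15 and 0.798 CPM and rose to 4.12 and 4.93 CPM (log2 fold change 1.97 ± 0.19, adjusted p = 9.48e-08).

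Both collagen genes rose together in *Mtrex*-KO. *Col4a1* was at 24.6 and 27.9 CPM in WT and at 126 and 123 CPM in *Mtrex*-KO (2.23 ± 0.13, adjusted p = 2.58e-10). *Col4a2* was at 8.75 and 9.83 CPM in WT and at 60.4 and 42.9 CPM in *Mtrex*-KO (2.42 ± 0.17, adjusted p = 2.3e-09). In both genes every *Mtrex*-KO library lay above the WT libraries of all experiments. *Sparc*, which encodes a collagen-binding glycoprotein of basement membranes, was at 337 and 336 CPM in WT and at 686 and 815 CPM in *Mtrex*-KO (1.15 ± 0.09, adjusted p = 5.81e-09).

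The list did not move as a whole. *Lama1* stood at 339 and 308 CPM in WT and 291 and 344 CPM in *Mtrex*-KO, groups that overlap, with a log2 fold change of −0.03 and an interval of −0.31 to 0.25. *Gata4* was at 8.23 and 8.12 CPM in WT and 6.53 and 6.01 CPM in *Mtrex*-KO (−0.37, adjusted p = 0.0416). *Sox17* was at 0.684 and 0.826 CPM in WT and 1.95 and 1.32 CPM in *Mtrex*-KO, and passed the p threshold alone (0.89, adjusted p = 0.00627), as 55.9% of genes did at any fold change. It was called by edgeR (1.10) and without *Mtrex*-KO replicate 2 (1.14). *Pdgfra* had a log2 fold change of 0.42 (adjusted p = 0.158). The 5 calls stand beside 26.7% of all genes called and 15.8% called higher, the largest background of the 6 comparisons without CHX. The median of the members was 1.15, against 0.00 over all genes. *Mtrex*-KO replicate 1 had the lowest share of its reads in genes of the RNA-seq libraries (72.1%), and with CPM as deposited, without the scaling factors, the median over all genes in *Mtrex*-KO moved to −0.38, the genes called from 2354 higher and 1618 lower to 1604 and 3094, *Sparc* to 0.75 with its call lost *Gata4* to −0.75 and *Lama1* to −0.43, while the other 4 calls stayed.

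Markers of another lineage moved in the same *Mtrex*-KO libraries. Of 11 trophectoderm markers tested, 9 rose and none fell, with a median of 2.18, where 15.8% of all genes were called higher. The summed level of the 13 markers listed went from 160 and 192 CPM to 677 and 686 CPM. *Krt19* (5.43), *Krt18* (3.89), *Ascl2* (3.27) and *Krt7* (3.24) had the largest log2 fold changes. The trophectoderm factor *Elf5* stayed at or below 0.142 CPM in both groups. Of 7 fibroblast markers tested, *Tagln* (4.37) and *Col1a1* (1.09) rose and *Thy1* and *Fbln2* fell, and *Lum* was at 0 in all 4 libraries. Their part in the change of the 10 genes was not tested.

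**Figure D2:**
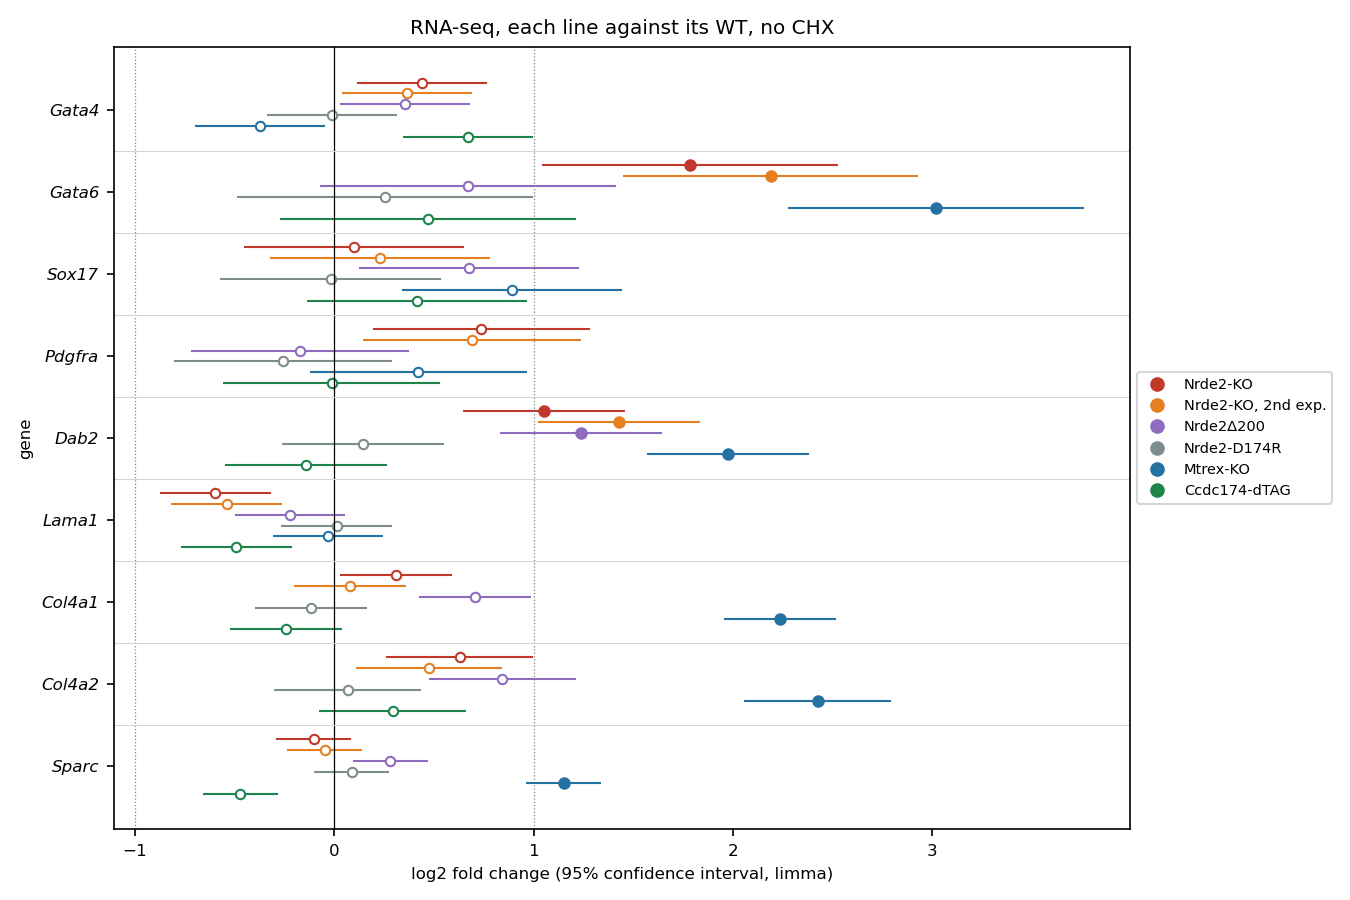
Log2 fold change (x axis) of the 9 genes tested (y axis) in the comparisons without CHX, with 95% confidence intervals from limma. Filled points are called, open points are not, and dotted lines mark −1 and 1; *Gata6* and *Dab2* are called in both *Nrde2*-KO experiments and in *Mtrex*-KO, and *Col4a1*, *Col4a2* and *Sparc* in *Mtrex*-KO.

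The *Mtrex*-KO effect differed from that of *Nrde2*-KO for 3 of the 9 members, all basement membrane genes. The test of the difference, in libraries with separate controls, passed for *Col4a1* (1.92 ± 0.19, adjusted p = 5.55e-07), *Col4a2* (1.80 ± 0.25, adjusted p = 1.82e-05) and *Sparc* (1.26 ± 0.13, adjusted p = 7.56e-07), all higher in *Mtrex*-KO, where 18.7% of all genes passed and 11.5% were higher. *Lama1*, the other basement membrane gene, differed by 0.57 (adjusted p = 0.02), *Gata6* by 1.23 (adjusted p = 0.0526) and *Dab2* by 0.92 (adjusted p = 0.0108), none called, although *Dab2* was called without *Mtrex*-KO replicate 1 (1.05), without *Mtrex* WT replicate 1 (1.13) or without *Nrde2* WT replicate 1 (1.09). *Gata4* differed the other way, by −0.81 (adjusted p = 0.00587), short of the fold threshold (31.5% of genes passed at any fold change).

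On depletion of CCDC174, which binds NRDE2 and splicing factors, none of the 9 members was called, with 1.38% of all genes called. *Gata4*, a GATA factor that binds the same motif as GATA6, was at 2.59 and 2.57 CPM in WT and 4.32 and 4.18 CPM in *Ccdc174-dTAG* (log2 fold change 0.67 ± 0.15, adjusted p = 0.00839), groups that do not overlap, below the fold threshold. *Sparc* was lower, at 523 and 524 CPM against 388 and 368 CPM (−0.47, adjusted p = 0.00195). At any fold change 5.59% of genes passed that p. *Lama1* was at 195 and 193 CPM in WT and 147 and 130 CPM in *Ccdc174-dTAG* (−0.49), groups that do not overlap, and did not pass the p threshold. *Gata6* was at 0.358 and 0.359 CPM in WT and 0.641 and 0.547 CPM in *Ccdc174-dTAG* (0.47, adjusted p = 0.439), and *Dab2* at 2.62 and 2.90 CPM against 2.31 and 2.65 CPM (−0.14, adjusted p = 0.712). The effect of *Ccdc174-dTAG* minus that of *Nrde2*-KO was −1.19 for *Dab2* (adjusted p = 0.0162) and −1.31 for *Gata6* (adjusted p = 0.128). None of the 9 members passed that test by limma, where 1.0% of all genes did, although DESeq2 called *Dab2*.

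In Ribo-seq, which measures fragments of mRNA protected by ribosomes, 3 of 8 members tested rose in *Nrde2*-KO, *Gata6*, *Pdgfra* and *Col4a2*, with 6.42% of all 13857 genes called and 3.62% called higher. *Gata6* was at 0.652 and 0.400 CPM in WT and at 2.7 and 2.08 CPM in *Nrde2*-KO, from 5 and 3 reads to 15 and 16 reads (log2 fold change 1.77 ± 0.42, adjusted p = 0.00256). *Pdgfra*, the PDGF receptor of primitive endoderm cells, was at 0.913 and 1.60 CPM in WT and at 3.96 and 4.81 CPM in *Nrde2*-KO, from 7 and 12 reads to 22 and 37 reads (1.65 ± 0.34, adjusted p = 0.000699). *Col4a2* was at 7.83 and 11.1 CPM in WT and at 28.2 and 24.9 CPM in *Nrde2*-KO (1.48 ± 0.16, adjusted p = 5.57e-07). In each of the 3 the groups did not overlap, which is no support apart from the calls, since both rest on the same libraries.

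*Col4a1* went from 23.7 and 29.4 CPM to 50.3 and 47.5 CPM (0.88 ± 0.11, adjusted p = 3.99e-06), below the fold threshold, where 25.2% of genes passed at any fold change. It was called without WT replicate 2 (1.03). *Gata4* went from 0.783 and 0.667 CPM to 2.52 and 1.82 CPM (1.30, adjusted p = 0.0169), on 5 to 14 reads a library. *Dab2* had a value of 0.88 (adjusted p = 0.0473), *Lama1* of −0.23 (adjusted p = 0.0219) and *Sparc* of 0.10 (adjusted p = 0.355). *Sox17* and *Sox7* had at most 6 reads in any Ribo-seq library and were not tested. At these depths the calls depended on the method: DESeq2 called *Col4a2* alone (*Pdgfra* had an adjusted p of 0.0205 and *Gata6* was given none), so did a fit without a filter on low genes, and 5 members were called with CPM as deposited, where the median of all genes was 0.15 and the genes called went from 502 higher and 388 lower to 834 and 271. *Gata6* was also not called without WT replicate 2 or without *Nrde2*-KO replicate 1.

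The Ribo-seq effect minus the RNA-seq effect was above 0 for 7 of 9 members and was called for none, with 1.18% of all genes called. The 9 included *Sox17*, which passed the filter of this joint fit with at most 6 reads in any Ribo-seq library. It was 0.85 ± 0.25 for *Col4a2* (adjusted p = 0.0409), 0.57 ± 0.19 for *Col4a1* (adjusted p = 0.0581), 0.86 for *Gata4* (adjusted p = 0.0848), 0.91 for *Pdgfra* (adjusted p = 0.184) and −0.01 for *Gata6*. The median over the members was 0.57, against 0.00 over all genes. As a description, the log2 ratio of the Ribo-seq to the RNA-seq level in WT was −0.96 at the median of 12788 genes. *Gata4* lay far below, at −3.22 in WT, a ratio lower than in all but 1.53% of genes, and at −2.35 in *Nrde2*-KO (9.39% of genes below). *Sparc* at 1.12 and *Lama1* at 0.97 in WT lay high, with 95.9 and 95.1% of genes below.

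**Figure D3:**
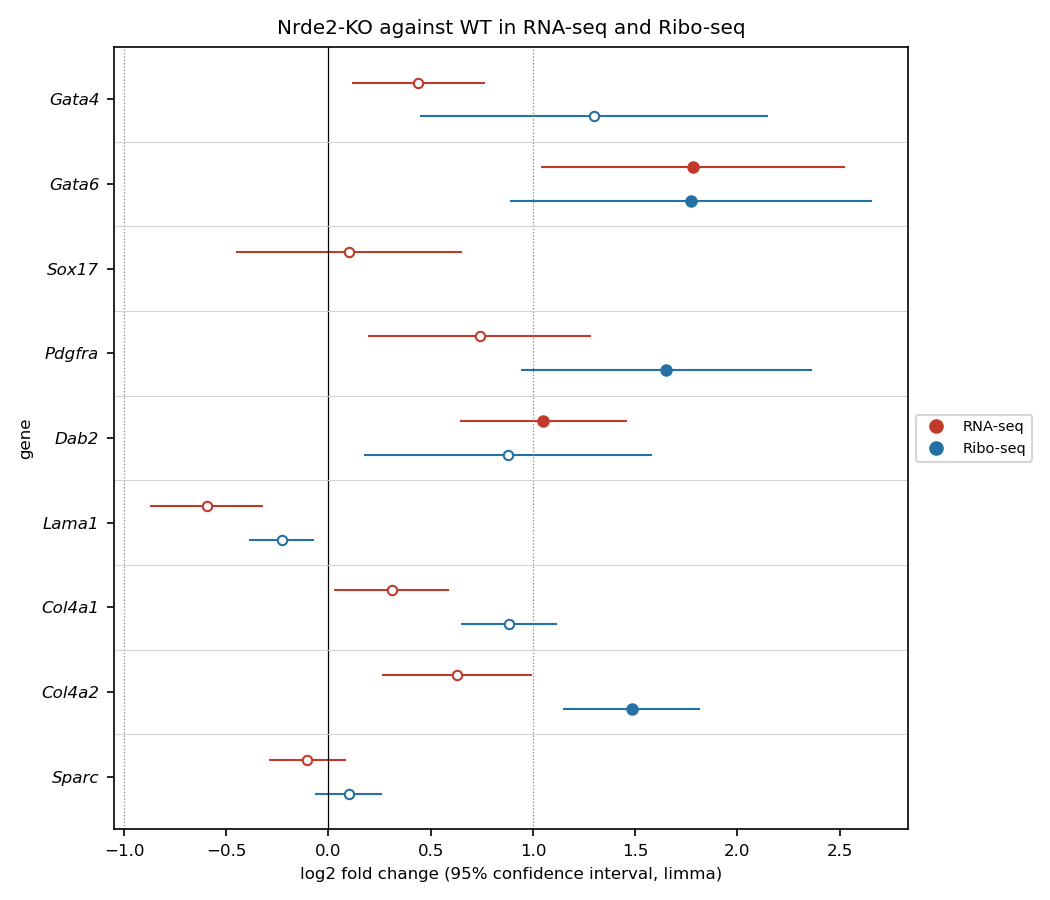
Log2 fold change (x axis) of *Nrde2*-KO against WT in RNA-seq and Ribo-seq for each gene (y axis), with 95% confidence intervals from limma and filled points for called genes. *Gata6* is called in both assays, *Dab2* in RNA-seq, and *Pdgfra* and *Col4a2* in Ribo-seq; *Sox17* was tested in RNA-seq alone.

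With CHX, 2 members rose in the libraries labelled *Nrde2*-KO, *Gata6* and *Pdgfra*, where 4.57% of all genes were called and 2.83% called higher. *Pdgfra* was at 2.53 and 2.06 CPM in WT with CHX and at 7.49 and 6.32 CPM in the labelled *Nrde2*-KO, the highest levels of this gene in the RNA-seq (log2 fold change 1.49 ± 0.16, adjusted p = 5e-05). *Gata6* was at 0.602 and 0.607 CPM against 4.03 and 1.86 CPM (1.81 ± 0.29, adjusted p = 0.000629), with no call in the fit without a filter on low genes. *Dab2* was at 3.44 and 1.94 CPM against 4.77 and 4.16 CPM (0.73, adjusted p = 0.0271), and was called without WT replicate 1 (1.10). *Lama1* (−0.71, adjusted p = 0.00023) and *Col4a1* (−0.45, adjusted p = 0.00045) passed the p threshold downward, as 27.8% of genes did in either direction, and missed the fold threshold. The effect with CHX minus that without CHX was called for none of the 9 members, with 0.172% of all genes called. That test, added after the data had been seen, gave 0.80 for *Pdgfra* (interval 0.11 to 1.49, adjusted p = 0.249), −0.70 for *Dab2* (adjusted p = 0.288) and −0.53 for *Col4a1* (adjusted p = 0.11).

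With CHX, none of the 9 members was called in *Ccdc174-dTAG*, with 0.911% of all genes called. *Col4a1* was lower, at 45.8 and 45.4 CPM in WT and 28.1 and 27.5 CPM in *Ccdc174-dTAG* (−0.71 ± 0.07, adjusted p = 9.83e-05), as were *Lama1* (−0.52, adjusted p = 0.00425) and *Sparc* (−0.44, adjusted p = 0.0014), none by enough to be called (9.05% of genes passed at any fold change). *Gata4* was higher, at 3.65 and 3.81 CPM against 5.38 and 6.01 CPM (0.58, adjusted p = 0.00963). The difference of this effect from that without CHX passed for no member, where 0.0727% of all genes did, and was −0.47 for *Col4a1* (interval −0.80 to −0.13, adjusted p = 0.274).

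With CHX against without it, *Sox17* and *Pdgfra* rose. *Sox17* was at 0.646 and 0.663 CPM in WT of the second *Nrde2* experiment without CHX and at 1.81 and 2.09 CPM with it (log2 fold change 1.28 ± 0.18, adjusted p = 2.13e-05), where 14.1% of all genes were called and 11.2% called higher. It also rose in the labelled *Nrde2*-KO, from 0.843 and 0.779 CPM to 2.62 and 2.43 CPM (1.39, adjusted p = 9.2e-06, with 14% of genes called and 10.9% called higher). In WT of the *Ccdc174* experiment it rose from 0.771 and 0.581 CPM to 1.68 and 1.64 CPM (1.05, adjusted p = 0.000115, with 15.3% of genes called and 12.7% called higher). In *Ccdc174-dTAG* it was at 1.06 and 0.902 CPM without and 1.66 and 1.39 CPM with CHX (0.53, adjusted p = 0.0176). These groups did not overlap, and *Sox17* was at 1.39 CPM or more in every library with CHX.

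*Pdgfra* rose with CHX in 3 of the 4 backgrounds. It went from 0.743 and 0.885 CPM to 2.42 and 2.71 CPM in *Ccdc174* WT (1.40, adjusted p = 8.51e-05), from 0.558 and 1.12 CPM to 2.35 and 2.22 CPM in *Ccdc174-dTAG* (1.27, adjusted p = 0.000207, with 14.5% of genes called and 11.9% called higher) and from 2.22 and 2.67 CPM to 7.49 and 6.32 CPM in the labelled *Nrde2*-KO (1.41, adjusted p = 8.63e-05). In the WT of the second *Nrde2* experiment it went from 1.61 and 1.24 CPM to 2.53 and 2.06 CPM (0.61, adjusted p = 0.0318). With a pseudocount of 1 these *Sox17* and *Pdgfra* calls were lost except that of *Pdgfra* in the labelled *Nrde2*-KO. The *Sox17* call in *Ccdc174* WT was also lost without *Ccdc174* WT replicate 2 of the libraries without CHX, and the *Pdgfra* call in *Ccdc174-dTAG* without its replicate 1 of those libraries.

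*Sparc* and *Lama1* went the other way. *Sparc* was lower with CHX in all 4 backgrounds, with log2 fold changes of −0.77 to −0.66 and adjusted p of at most 2.92e-06. *Lama1* was lower by −0.65 to −0.48 with adjusted p of at most 0.00119. Neither reached the fold threshold in any of them, and 47.5, 48.9, 49.5 and 50.4% of genes passed the p threshold at any fold change in *Nrde2* WT, *Nrde2*-KO, *Ccdc174* WT and *Ccdc174-dTAG*. *Gata6* and *Dab2* were not called with CHX in any background, but *Dab2* was without replicate 2 of the WT libraries with CHX (1.01 in *Nrde2* WT) and *Gata6* without replicate 1 of the knockout libraries without CHX (1.30 in the labelled *Nrde2*-KO) and in a fit of the compared groups alone (1.10 in *Ccdc174* WT). *Col4a1* and *Col4a2* passed the p threshold downward in the labelled *Nrde2*-KO alone (−0.58 and −0.66), which is no test of a difference from the other backgrounds. Without the scaling factors, all genes together had a median of 0.201 to 0.239 under CHX, against −0.01 to 0.03 with them, and genes called in the labelled *Nrde2*-KO went from 1642 higher and 480 lower to 2211 and 298, while 0 of the member calls changed. Among 24 genes of the FGF and ERK pathway tested, the median with CHX was −0.30 to −0.18 in the 4 backgrounds, and 7 to 9 genes lay above 0. In each background 4 to 5 of the 24 rose and 1 to 2 fell, where 10.9 to 12.7% of all genes were called higher. *Egr1*, *Dusp6*, *Fgfr2* and *Spry2* rose with CHX in all 4 backgrounds and *Fgf4* fell, while the epiblast factor *Nanog* fell (−1.42 to −1.15).

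**Figure D4:**
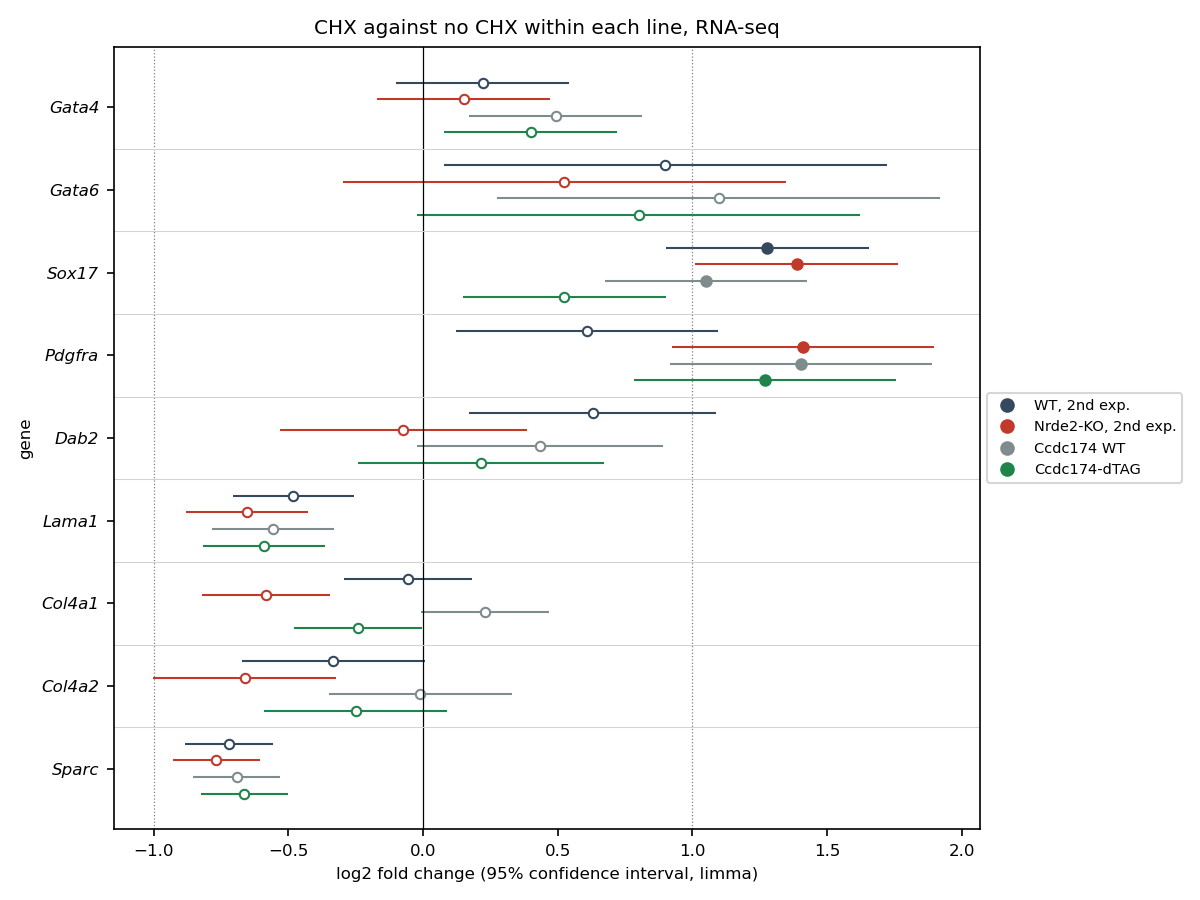
Log2 fold change with CHX against without CHX (x axis) of the 9 genes tested (y axis) in the 4 backgrounds, with 95% confidence intervals from limma and filled points for called genes. *Sox17* and *Pdgfra* lie to the right in every background, and *Sparc* and *Lama1* to the left.

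Other genes of the primitive endoderm and its derivatives moved in both directions. Of 21 tested, 1 rose and 2 fell in *Nrde2*-KO (median 0.16), *Plat* (1.24, a protease of the parietal endoderm), *Apoe* (−1.21) and *Podxl* (−1.07). In that comparison 5.01% of all genes were called and 3.02% called higher. In the second experiment only *Apoe* was called (−1.04), with 4.84% of all genes called. In *Nrde2*Δ200, *Aqp8* (1.39), *Plat* (1.33) and *Srgn* (1.10) rose, where 1.59% of all genes were called higher. *Mtrex*-KO raised 4 and lowered 4 of the 21 (median 0.24), where 15.8% of all genes were called higher and 26.7% in either direction: the endocytic receptor gene *Lrp2*, whose product DAB2 binds, from 16.7 and 14.5 CPM to 232 and 204 CPM (3.78), with *Plat* (2.92), *Apob* (1.5) and *Lamb1* (1.12) higher and *Aqp8* (−2.29), *Nid1* (−1.53), *Rbp4* (−1.28) and *Srgn* (−1.02) lower. In Ribo-seq, 3 of 24 rose in *Nrde2*-KO (*Srgn* 2.14, *Plat* 1.65 and *Fst* 1.31), where 3.62% of all genes were called higher. None of this list was called in *Nrde2-D174R* or *Ccdc174-dTAG*. Within the list the factor *Foxa2* was at or below 0.244 CPM in all RNA-seq libraries without CHX, and with CHX it fell from 1.42 and 2.26 CPM in WT to 0.569 and 0.552 CPM in the labelled *Nrde2*-KO. *Hnf4a* was at 8.54 and 10.1 CPM in the *Mtrex* WT and 5.34 and 5.35 CPM in *Mtrex*-KO.

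Among 20 partners of the basement membrane tested, *Lamb2* and *Agrn* fell in both *Nrde2*-KO experiments and in *Ccdc174-dTAG*. Of all 14889 genes tested, 296, 361 and 172 were called lower in these comparisons, in that order. *Lamb2*, a laminin chain gene, was at 76.2 and 68.8 CPM in WT and at 23.6 and 22.1 CPM in *Nrde2*-KO (log2 fold change −1.65), fell by 1.71 on the log2 scale in the second experiment and fell by 1.87 in *Ccdc174-dTAG*. It also fell by 1.55 and fell by 1.80 in the labelled *Nrde2*-KO and *Ccdc174-dTAG* with CHX, and fell by 1.71 in Ribo-seq. With CHX, 3 of 20 partners fell in the labelled *Nrde2*-KO and 3 of 20 in *Ccdc174-dTAG*, where 269 and 109 of 15476 genes were called lower. In Ribo-seq 2 of 21 fell, where 388 of 13857 genes were called lower. Among the partners *P4ha2* rose in the second experiment (1.00) and in Ribo-seq (1.14), and *Col4a5* rose in Ribo-seq (1.88). *Agrn*, the gene of a heparan sulfate proteoglycan, had log2 fold changes of −1.06, −1.30 and −1.04 in *Nrde2*-KO, the second experiment and *Ccdc174-dTAG*. In *Mtrex*-KO, 5 of 20 partners rose, where 15.8% of all genes did, *Hspg2* (perlecan, 1.94), the collagen prolyl and lysyl hydroxylase genes *P4ha2* (1.77) and *Plod2* (1.26), *Lamb1* (1.12) and *Lama5* (1.04), and *Nid1* (−1.53) and *P4ha1* (−1.16) fell. *Serpinh1*, the collagen chaperone gene, was at 50.9 and 45.7 CPM in the *Mtrex* WT and 93.6 and 98.9 CPM in *Mtrex*-KO, without a call.

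The FGF and ERK pathway genes, measured in cells under a MEK inhibitor, were not called in either *Nrde2*-KO experiment without CHX (0 of 22). In *Mtrex*-KO 4 of 22 rose, a share near the 15.8% of all genes, the feedback inhibitors *Spry4* (2.58), *Dusp6* (1.99) and *Dusp4* (1.33) and the receptor gene *Fgfr2* (2.39), one of the FGF receptors of the primitive endoderm, while *Mapk3* (−1.93) and *Fgf4* (−1.36), the FGF ligand gene of the epiblast, fell. Of 18 epiblast markers, 0 were called in *Nrde2*-KO (median −0.38) and 1 in the second experiment (*Utf1*, −1.10). In *Mtrex*-KO 1 of the 18 rose, *Klf5* (1.52), and 3 fell, *Prdm14* (−1.38), *Fgf4* and *Nanog* (−1.03). That share is no higher than the 26.7% of all genes called in either direction there. *Nanog* stood at 1030.1 and 1188 CPM in the *Mtrex* WT and 493 and 599 CPM in *Mtrex*-KO. In *Nrde2*-KO, 2 of 11 trophectoderm markers rose in both experiments, *Gata3* (1.37 and 1.25) and *Cdx2* (1.32 and 1.36). In these experiments 3.02% and 2.41% of all genes were called higher. *Gata3* was the one gene of all these lists called in *Nrde2-D174R* (1.59). None of 5 definitive endoderm and mesoderm markers tested was called in *Nrde2-D174R* or in either *Nrde2*-KO experiment without CHX. In *Mtrex*-KO 2 of the 5 fell, where 26.7% of all genes were called in either direction. *Gsc* went from 2.13 and 2.91 CPM to 0.314 and 0.312 CPM, and *T* from 1.83 and 1.34 CPM to 0.419 and 0.451 CPM. Among the markers of this list too low to test, *Wnt3* went from 0.246 and 0.142 CPM to 3.31 and 2.43 CPM (95 and 70 reads). *Lhx1* went from 0 CPM in both *Mtrex* WT libraries to 0.628 and 0.521 CPM, and the others stayed below 0.5 CPM in both groups. *Cer1* was at 0 in all RNA-seq libraries without CHX. In Ribo-seq of *Nrde2*-KO, *Fgfr2* (2.09) and the fibroblast marker *Col1a1* (2.46) rose, and *Spry4* (−2.48), *Etv4* (−1.04), the epiblast marker *Utf1* (−1.91) and the trophectoderm marker *Krt8* (−1.15) fell. Of 10 trophectoderm markers tested in Ribo-seq, 1 rose and 1 fell, with a median of 0.04. There 3.62% of all genes were called higher and 6.42% in either direction.

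Across the 14 RNA-seq group means on the log2 scale, *Col4a1* and *Col4a2* were the pair of members most alike (Pearson r = 0.841), followed by *Dab2* and *Gata6* (r = 0.773). *Lama1* ran against *Pdgfra* (r = −0.664). The genes most alike to *Gata6* among 15227 were *Neu3* (r = 0.958), *Ninj2* (0.957) and *Parp10* (0.953), and those most alike to *Dab2* were *Ccdc157* (0.869), *Bco2* (0.867) and *Brdt* (0.86). For *Col4a1* they included *Pla2g7* (0.931) and *Cobll1* (0.916), and for *Col4a2* *Anks1b*, *Slc35d1* (0.952 each) and *Flnc* (0.949). *Sparc* was most like *Msn* (0.941), *Lasp1* (0.939) and *Prps2* (0.926). For *Gata4* they were *Ap5m1* (0.965), *Sall2* (0.954) and *Fam120c* (0.95), for *Sox17* *Tent5a* (0.958), *Ddx59* (0.956) and *Dll1* (0.949), for *Pdgfra* *Rbm43* (0.94), *Ahrr* (0.936) and *Slc35b3* (0.922), and for *Lama1* *Hacd1* (0.96), *Tomm40l* (0.949) and *Grhl3* (0.945). These correlations are descriptions over group means of 2 libraries, with CHX and single experiments shared by several of the points.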

How the data were processed

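RNA-seq (rRNA-depleted total RNA, stranded) and Ribo-seq were measured in mouse ES cells, 28 and 4 libraries. Reads were aligned by the authors with STAR 2.7.3a to the mm10 genome. They counted these per gene with featureCounts, Ribo-seq reads after collapsing duplicates, and deposited CPM. The deposited CPM were whole multiples of 1 read (100.0% of values within 0.1), so reads were recovered, as were the depths in genes given above. 1 median-of-ratios factor per library was computed over all libraries of its assay, a scope settled after results with factors within each fit had also been seen (0 member calls changed, largest move 0.0407). limma 3.58.1 (trend, R 4.3.3) was fitted to log2(CPM + 0.25) of genes with a mean of at least 0.5 deposited CPM over the libraries of a fit, with Benjamini-Hochberg adjustment, and was tested on simulated data. One fit held the 20 libraries without CHX (14889 genes), one the 8 with CHX (15476), one the Ribo-seq (13857), and 2 more the 16 libraries of the CHX experiments (15133) and 8 of Ribo-seq and RNA-seq (14700). edgeR 4.0.16 and DESeq2 1.42.0 on the recovered reads, other pseudocounts (0.1, 1), filters, CPM as deposited, a replicate block, the compared groups alone and each replicate left out were alternatives. Named genes were the 10 members, up to 4 called genes of each list by size with other list genes as values, the 3 genes most alike to a member (1 of them is not reported here), and the targeted genes. *Foxa2*, *Hnf4a*, *Serpinh1*, *Lum*, *Cer1*, *Elf5*, *Ttr*, *Afp*, *Wnt3*, *Lhx1*, *Lrp2* levels and list genes past the fourth were named after their values were seen. The members, lists and tests were chosen with earlier results of these data known. Gene positions are from GENCODE M21 (GRCm38), which matched 55154 of 55335 identifiers. BCLIP-seq samples were not analysed here.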

Additional observations from a re-analysis of the deposited data

Results flagged for a closer look

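The effect of *Mtrex*-KO against its WT differed from that of *Nrde2*-KO against its own WT, by the test of the difference itself in limma, for 4 of the 9 members tested at an adjusted p below 0.01 whatever the fold, as for 31.5% of all genes. Of these, 3 also passed the fold threshold. The difference in log2 fold change was 1.92 for *Col4a1*, 1.8 for *Col4a2* and 1.26 for *Sparc*, each higher in *Mtrex*-KO. For *Gata4* it was −0.812, with log2 fold changes of 0.44 in *Nrde2*-KO and −0.37 in *Mtrex*-KO, neither called. With CPM as deposited the *Sparc* difference was 0.80 and lost its call, and that of *Gata4* was −1.25 and gained one. The 2 knockouts also differed in the days of 4OHT and in their experiment, which cannot be told apart from the gene lost.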

How the results depend on the processing

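Of the 24 calls of a member in a comparison, 324 of 344 repeats under another setting kept the call, 20 lost it and 0 changed sign. Of the 146 results without a call, 16 of 2216 repeats gained one and 81 changed sign while not called. The number of members called moved by over 1.5 times as follows. With a pseudocount of 1 it was 1 in *Nrde2*-KO (2 as reported), 0 for CHX in *Nrde2* WT (1), 1 for CHX in *Nrde2*-KO (2), 0 for CHX in *Ccdc174* WT (2) and 0 for CHX in *Ccdc174-dTAG* (1). With no filter on low genes it was 1 in CHX-treated *Nrde2*-KO (2) and 1 in Ribo-seq (3). CPM as deposited gave 5 in Ribo-seq. DESeq2 gave 1 in Ribo-seq, with no adjusted p for *Gata6* and *Gata4*, and 1 for *Ccdc174-dTAG* minus *Nrde2*-KO (0). Leaving out 1 library at a time gave 0 to 2 in *Nrde2*-KO, with 0 without WT replicate 1 or *Nrde2*-KO replicate 1, and 1 to 2 for CHX in *Nrde2* WT, 1 to 2 for CHX in *Ccdc174* WT and 0 to 1 for CHX in *Ccdc174-dTAG*. Smaller moves were 4 to 6 in *Mtrex*-KO (5, losing *Sparc* with CPM as deposited and gaining *Sox17* with edgeR, a pseudocount of 0.1 or without *Mtrex*-KO replicate 2), 3 to 4 for *Mtrex*-KO minus *Nrde2*-KO (3, gaining *Dab2*), and, with 1 library left out, 2 to 3 in Ribo-seq, in CHX-treated *Nrde2*-KO and for CHX in *Nrde2*-KO. A fit of the compared groups alone gave 3 for CHX in *Ccdc174* WT. The replicate block changed 0 member calls. Replicate numbers are shared by label only, and same-numbered libraries deviated together in some comparisons and not in others (correlations of −0.036 to 0.412). Depth limits *Gata6*, *Sox17*, *Pdgfra* and *Dab2*, and all of them most in Ribo-seq.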
